A study of Mus musculus with 4 samples.

Results

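Cytosolic ribosomal protein genes were examined in organoids of the mouse small intestine (SI) given either the mimic of miR-181a-5p or its control mimic. Members were protein-coding genes whose symbol begins with Rpl or Rps and a number, together with Rpsa, Rplp0, Rplp1 and Rplp2. Pseudogenes and the Rps6 kinases were left out. The rule took 84 of the 55487 genes listed, of which 46 encode large subunit proteins, 31 encode small subunit proteins, and 7 are paralogs with an added letter or number (Rpl3l, Rpl7l1, Rpl10l, Rpl22l1, Rpl36al, Rpl39l and Rps27l). A further 6 symbols of this form, among them Rps4l, are annotated as pseudogenes. Such organoids are cultures of the epithelium started from isolated crypts, and both groups were transduced with lentivirus and selected in puromycin at 2 μg/ml, so that they differed by the mimic or its control. The control group (miRNA mimic control) had 2 libraries, replicates 1 and 2, and the mimic group (miR-181a-5p mimic) had 2, replicates 3 and 4. The sources do not say whether replicates were transduced separately, so p-values measure only the spread between these libraries, which may be technical.

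The cytosolic ribosome reads mRNA on its small subunit and joins amino acids on its large subunit. Its proteins are made in nearly equal numbers, from some of the most abundant mRNAs of a growing cell, and most of these mRNAs begin with a pyrimidine tract (the TOP motif) through which mTOR signalling controls their translation. In the intestine the demand for ribosomes is highest in the dividing cells of the crypt.

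The agent of the experiment is shown first, because the seed of a miRNA decides which mRNAs it can pair with. In RefSeq the mature mouse miR-181a-5p has 23 bases and is encoded at chr1:137966468-137966490 and chr2:38852741-38852763 on the plus strand of GRCm38.p6. The seed, bases 2 to 8, is in capitals. The sequence carried by the lentivirus was not analysed here.
mmu-miR-181a-5p: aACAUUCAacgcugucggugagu

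The letters complementary to this seed, TGAATGT, were sought on the transcript strand in the longest 3′ UTR and the longest coding sequence that GENCODE M21 gives a gene. They were in the 3′ UTR of 7 of the 77 subunit genes tested (9.09%) and of 2334 of 12856 other protein-coding genes tested (18.2%). The 3′ UTRs differed in length as well, with a median of 152 bases for the subunit genes and 1145 bases for the others. In the 7 subunit genes with a match the longest 3′ UTR ran from 875 bases (Rpsa) to 3167 bases (Rps20). Whether these cells used those long forms was not examined. In the coding sequence the letters were found in 2 subunit genes, Rps15a and Rps27a (2.6%, against 12.8% of the others), and in no paralog in either region. The 3 sites printed belong to the member with the lowest log2 fold change of all, the member with a site nearest to 0 from below, and the only member with a site that lay above 0. They lie in the 3′ UTR of Rpl22 at chr4:152334016-152334045 (plus strand), of Rps20 at chr4:3831657-3831686 (minus strand) and of Rpl5 at chr5:107908513-107908542 (plus strand), with the 7 matching bases in capitals.
Rpl22: ttgtatttgaaTGAATGTtgatcacttttt
Rps20: aatgactacatTGAATGTcccttagttaac
Rpl5: catgccagacaTGAATGTacataggaaaat
The other 3′ UTR matches were in Rpl9, Rpl21, Rps24 and Rpsa. The 7 genes with a 3′ UTR match had log2 fold changes, mimic over control, from -0.32 to 0.03, and the values of all members follow further on. A match of letters is a description and not a site shown to be used.

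Each gene's level was read from expected counts, which are RSEM's estimates of the reads from a gene, and from TPM, an abundance per transcript length that was used wherever genes are compared with each other. Libraries held 31104884 to 38111731 expected counts, and counts per gene were scaled to library size with edgeR's TMM factors (normalized CPM). The epithelial markers Epcam, Cdh1, Krt8, Krt18, Krt19, Vil1, Cdx1 and Cdx2 all averaged above 1 TPM and summed to 2689 to 3170 TPM per library. The mesenchymal list (7 genes, 3 of them at 0 in all libraries) summed to 2.54 to 7.26 TPM, the leukocyte list (5 genes) to 2.5 to 3.14 TPM and the endothelial list (3 genes, 2 at 0 in all) to 0.11 to 0.39 TPM. Control replicate 1 stood apart, since it was the deepest library and annotated rRNA took 0.442% of its counts, against 0.0848% to 0.119% in the others. Mature miRNAs are not measured by such libraries, so the level of the mimic was not checked here.

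The subunit mRNAs were abundant at closely similar levels. Over the 77 genes of both subunits, mean TPM over the 4 libraries had a median of 1566 and ran from 109.8 for Rpl5 to 3393 for Rpl13a, a 30.9-fold range, and 68 genes lay within 2-fold of the median. Large subunit genes had a median of 1471 TPM and small subunit genes of 1704 TPM. Rpl13a, whose protein also takes part in silencing certain mRNAs in inflammation, was at 3352 and 3325 TPM in the controls, against 3341 and 3553 TPM with the mimic. Rps12 followed at 3067 and 3009 against 2721 and 3135 TPM. Rps24 and Rpl23a were also among the highest, each with a mean of 2871 TPM. Rpl13a was above these 3 in every library, whereas the ranges of the 3 over the libraries overlapped, so their order is not fixed by these data.

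At the low end stood Rpl7l1 (mean 66.2 TPM), Rpl5 (109.8 TPM), Rpl27 (184 TPM), Rps27l (253 TPM) and Rpl22l1 (340 TPM). These are levels as assigned by RSEM. Loci named after Rpl27 with -ps received 1.72 times the gene's counts, and those named after Rpl5 received 0.0106 times. Copies under other names were not counted, and the part of read assignment in these levels was not tested. Rpl5, whose protein joins Rpl11 and the 5S rRNA in the particle that can bind Mdm2, was at 111 and 113 TPM in the controls, against 101 and 114 TPM with the mimic. The order of the subunit genes was shared by the libraries, with Spearman correlations of TPM between 0.964 and 0.99 (n = 77 genes, a description over genes that share their libraries and annotation). The other 3 paralogs were at or near 0. Rpl10l and Rpl39l had no count in any library, and Rpl3l, the heart and skeletal muscle form of Rpl3, had 1 count, in mimic replicate 4. A count of 0 in the deepest library allows up to 3 counts.

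With the mimic, nearly every subunit gene lay slightly below the control and none passed the test. The test was edgeR's quasi-likelihood test over 17155 genes that passed its filter on low counts, 81 members among them, with Benjamini-Hochberg adjustment. At an adjusted p under 0.05, 0 of 81 members were called in either direction, where 3.57% of all genes were called (2.29% lower and 1.28% higher with the mimic). At an unadjusted p under 0.05, 8 members were lower, where 13.0% of all genes were, and 1 was higher, where 11.8% were. The count of lower members moved with the treatment of the data. It was 0 in the 3 fits of TPM, where 5.82% to 7.76% of all genes were lower at that threshold. It was 25 of 82 without the filter on low counts, where 8.58% of all genes were. With upper-quartile factors it was 27 of 81, where 15.6% of all genes were. Log2 fold changes, mimic over control, lay below 0 for 31 of 31 small subunit genes and 43 of 46 large subunit genes, against 51.4% of all genes tested. All 4 paralogs tested lay above 0. The 3 large subunit genes above 0 were Rpl13a, Rpl5 and Rpl27.

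The size of these differences was small and alike in both subunits. The median log2 fold change was -0.17 for the large subunit (range -0.32 to 0.35) and -0.16 for the small subunit (range -0.28 to -0.05), that is -11.3% and -10.6% at the median. Over all genes tested the median was -0.01, and over protein-coding genes it was 0.02. The median of the large subunit less that of the small subunit was -0.01, and it ran from -0.04 to 0.02 over 18 alternative treatments of the data, so no direction is given for it. Standard errors of single genes were 0.09 to 0.13, close to the size of the changes. No p-value is given for a sum or median over the members, and for a single value the smallest p of an exact permutation test with 2 libraries per group is 0.333.

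**Figure D1:**
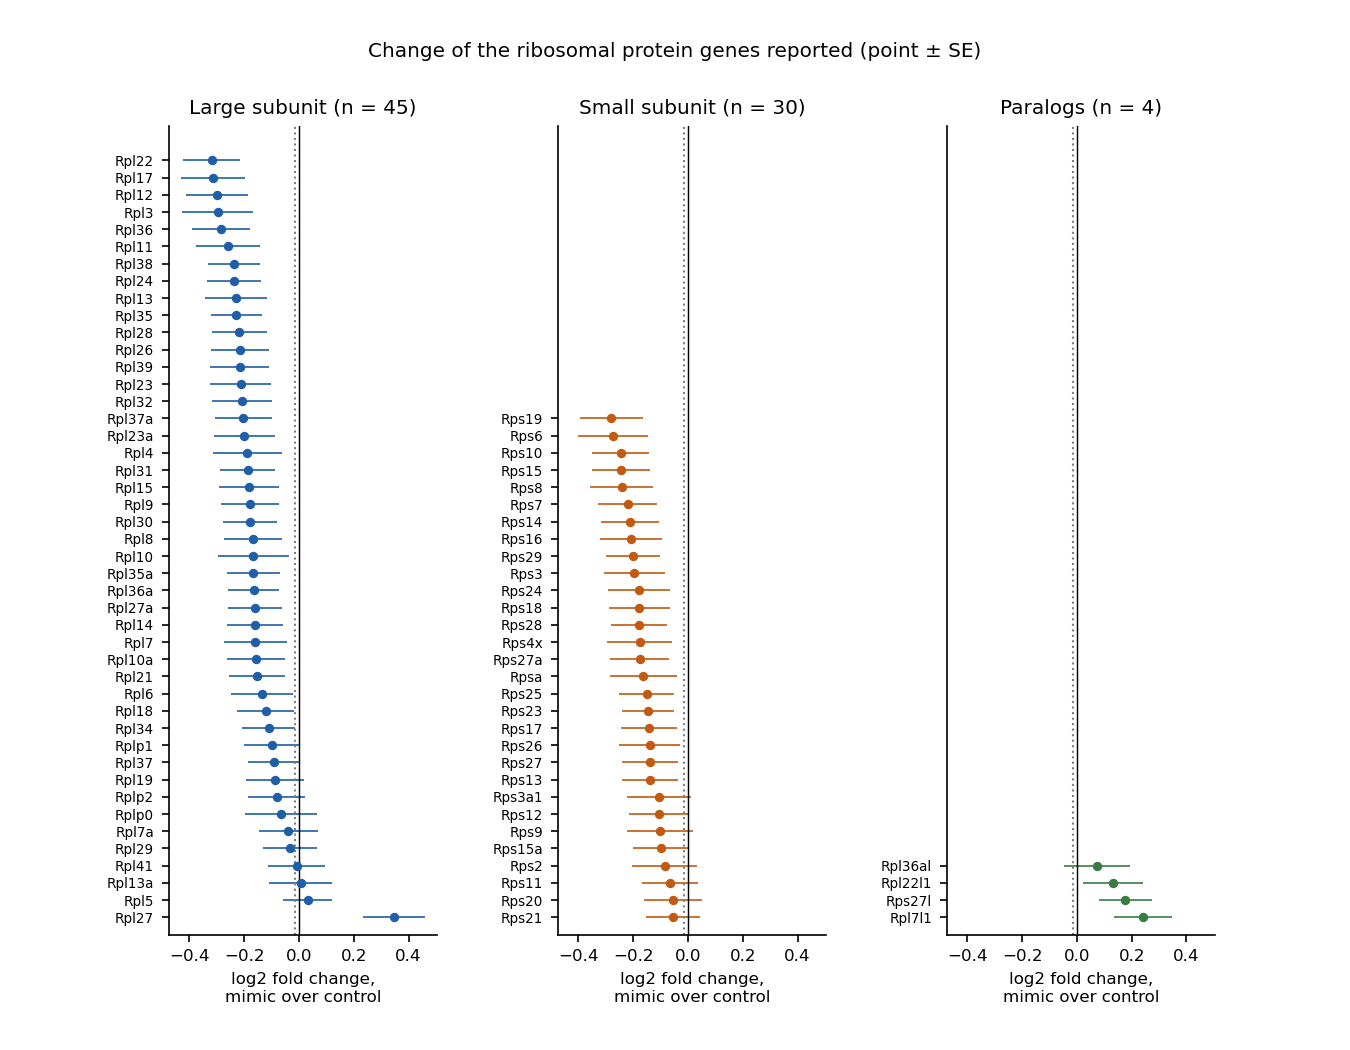
Log2 fold change (mimic over control) of 45 large subunit genes, 30 small subunit genes and 4 paralogs, with bars of 1 standard error from edgeR's fit and the median of all genes as a dotted line. All small subunit genes shown and all large subunit genes shown but Rpl13a, Rpl5 and Rpl27 lie left of 0, the 4 paralogs lie right of it, and no member had an adjusted p under 0.05.

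For 66 members both mimic libraries lay below both controls (38 large and 28 small subunit genes), where 29.5% of all genes did so. For 4 members both mimic libraries lay above both controls (Rpl5, Rpl27, Rpl7l1 and Rps27l), where 28.9% of all genes did. The groups overlapped for the other 11. The members do not vary independently of each other. Control replicate 1 had the highest normalized CPM of the 4 libraries for 72 of the 77 subunit genes, and the lowest value fell in mimic replicate 3 for 37 genes and in mimic replicate 4 for 37. The count of genes below 0 therefore rests on few libraries, however many genes it covers. Without control replicate 1 the medians were -0.14 (large) and -0.11 (small), with 41 of 46 and 30 of 31 genes below 0. Without control replicate 2 they were -0.20 and -0.22, and 4 of 81 members were then called lower with the mimic, where 6.64% of all genes were. By edgeR's quasi-likelihood test the adjusted p was 0.0335 for Rpl22, 0.0435 for Rps19, 0.0449 for Rpl3 and 0.0459 for Rpl36. With all 4 libraries none of them was called.

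**Figure D2:**
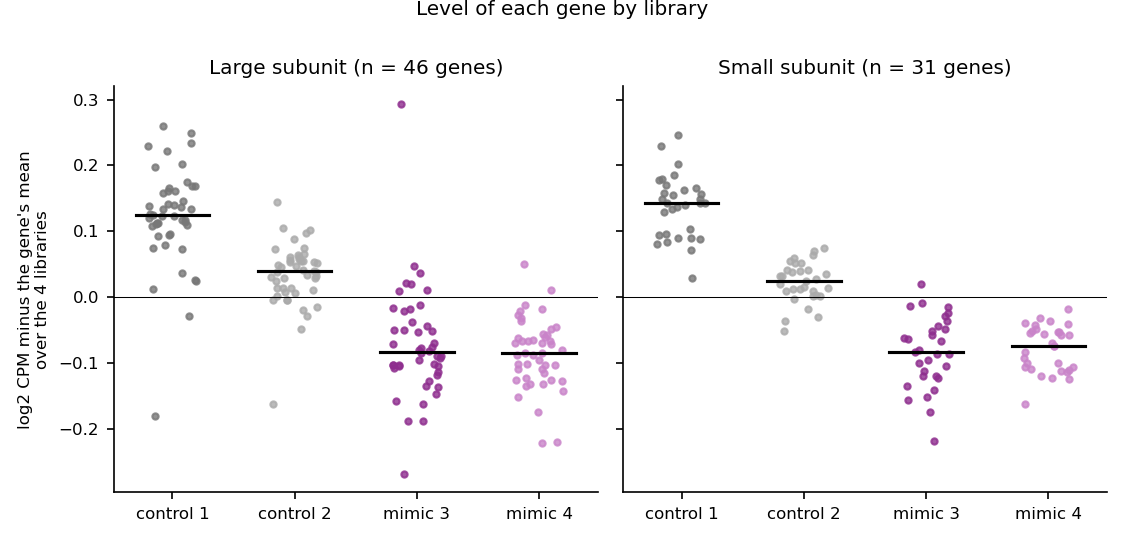
Log2 CPM of each subunit gene in each library, less the gene's mean over the 4 libraries, with each library's median as a black line. Control replicate 1 is the highest library for 72 of 77 genes, and both mimic libraries have medians below 0 in both subunits.

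Summed over members, ribosomal protein genes took 6.64% and 6.02% of the expected counts in the control libraries, against 5.74% and 5.75% in the mimic libraries. The groups did not overlap, and the means were 6.33% ± 0.438 and 5.74% ± 0.0099 (SD, n = 2). The gap between the controls (6.64% and 6.02%) was larger than the gap between control replicate 2 and either mimic library. Summed TPM gave another order, with 13.4% and 12.7% of the total in the controls, against 11.5% and 12.7% with the mimic. There mimic replicate 4, at 12.69%, lay above control replicate 2, at 12.65%, and the groups overlapped. Counts in large subunit genes were 1.34, 1.36, 1.35 and 1.34 times those in small subunit genes, in the order of replicates 1 to 4, so the balance between the subunits was alike in all libraries. In bulk libraries fewer cells of a type and less RNA per cell cannot be told apart.

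**Figure D3:**
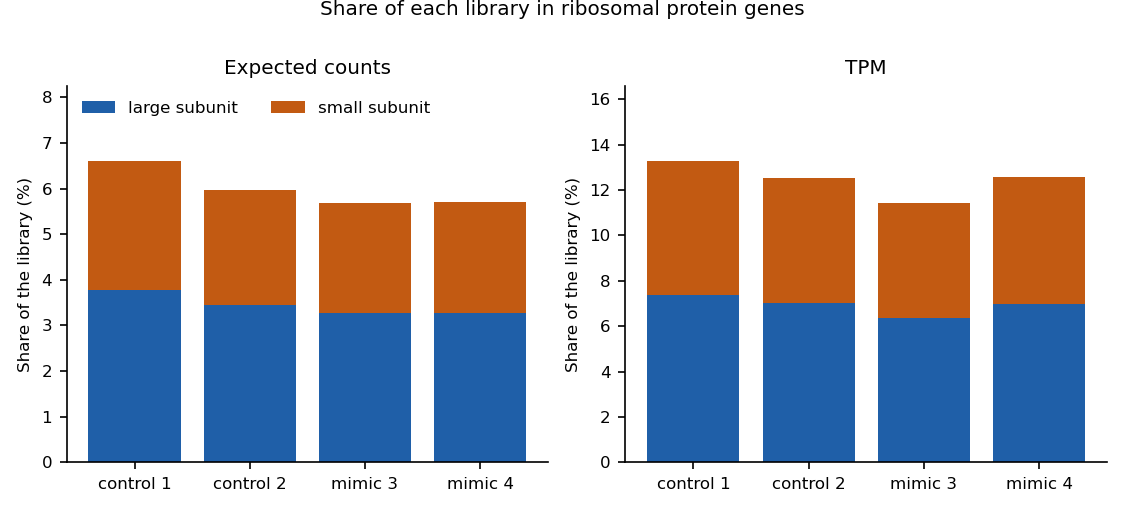
Share of each library's expected counts (left) and TPM (right) in large and small subunit genes, as stacked bars from 0 in percent. By counts both mimic libraries lie below both controls, and by TPM mimic replicate 4 lies between the controls.

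The lowest members were large subunit genes. Rpl22, an RNA-binding protein on the outer face of the ribosome (chromosome 4, 152325742 to 152334071), was at 392 and 345 normalized CPM in the controls, against 289 and 302 with the mimic. Both mimic libraries lay below both controls, with a log2 fold change of -0.32 (SE 0.10, adjusted p = 0.125 by edgeR's quasi-likelihood test). Rpl17, a protein beside the exit of the nascent chain, was at 1433 and 1306 against 1078 and 1128 CPM, a log2 fold change of -0.31 (SE 0.12). Rpl12, at the base of the stalk (chromosome 2, 32961559 to 32965345), was at 601 and 596 against 447 and 526 CPM, and its mimic libraries differed from each other by more than its controls did. Rpl3, which reaches into the peptidyl transferase centre (chromosome 15, 80077791 to 80091868), was at 1711 and 1462 against 1281 and 1302 CPM. Rpl36 (chromosome 17, 56613416 to 56614243) was at 404 and 356 against 319 and 305 CPM. In Rpl22, Rpl17, Rpl3 and Rpl36 the controls lay further apart than the mimic libraries, and control replicate 1 was the high one. With all libraries the log2 fold changes were -0.30 for Rpl12, -0.30 for Rpl3 and -0.29 for Rpl36, with adjusted p = 0.165, 0.206 and 0.156 by edgeR. Without control replicate 1 they were -0.23 for Rpl22, -0.25 for Rpl17, -0.30 for Rpl12, -0.19 for Rpl3 and -0.20 for Rpl36.

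Among small subunit genes, Rps19 and Rps6 were furthest below 0. They were named after their values were seen. Rps19, a protein whose loss in people causes Diamond-Blackfan anaemia, was at 728 and 626 CPM in the controls, against 551 and 565 with the mimic (log2 fold change -0.28, SE 0.11, adjusted p = 0.186 by edgeR). Rps6, the substrate of the S6 kinases, was at 1447 and 1270 against 1061 and 1189 CPM (log2 fold change -0.27, SE 0.13, adjusted p = 0.237). The groups did not overlap in either gene. Nearest to 0 were Rps21 and Rps20, both with a log2 fold change of -0.05, and their groups overlapped.

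The stalk genes stood near the upper end of the large subunit. The stalk, built on Rplp0 with pairs of Rplp1 and Rplp2, recruits the elongation factors to the ribosome. Rplp0 was at 2329 and 2087 CPM in the controls, against 2084 and 2140 with the mimic (log2 fold change -0.06), and the groups overlapped. Rplp1 was at 775 and 748 against 710 and 712 CPM (log2 fold change -0.10), with no overlap. Rplp2 was at 429 and 397 against 407 and 374 CPM (log2 fold change -0.08), again with overlap. Their standard errors of 0.10 to 0.13 covered the distance to 0 in each case.

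The paralogs lay on the other side of 0 from their parent genes. Rpl22l1, which can replace Rpl22 on the ribosome, was at 104 and 115 CPM in the controls, against 128 and 111 with the mimic. Its groups overlapped, with a log2 fold change of 0.13 (SE 0.11, adjusted p = 0.489 by edgeR) beside -0.32 for Rpl22, and the value ran from 0.04 (without mimic replicate 3) to 0.23 (without mimic replicate 4). Rps27l was at 76.4 and 83.4 against 91.4 and 89.2 CPM, with no overlap and a log2 fold change of 0.18 (SE 0.10) beside -0.14 for Rps27. Rpl7l1, whose protein acts in the assembly of the large subunit, was at 83.4 and 91.1 against 109 and 96.8 CPM. Its log2 fold change was 0.24 (SE 0.11, adjusted p = 0.212 by edgeR) beside -0.16 for Rpl7. Rpl36al was at 143 and 173 against 175 and 158 CPM, with overlap, and a log2 fold change of 0.07 beside -0.16 for Rpl36a. Without control replicate 1 its value was -0.07 and without control replicate 2 it was 0.22. In each of the 4 paralogs control replicate 1 was the lowest library. The median of the 4 paralogs was 0.15, and 0.08 without control replicate 1. The differences between paralog and parent were not tested, and the paralogs together took 0.0409% to 0.0507% of the counts.

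Rpl27 was the highest member, and its value was smaller when the counts of its named copies were added. It was at 57.0 and 57.8 CPM in the controls, against 79.2 and 66.9 with the mimic (log2 fold change 0.35, SE 0.11, adjusted p = 0.119 by edgeR), and it lies on chromosome 11 from 101442298 to 101445529. RSEM divides a read that matches several loci among them. How many of these genes' reads matched several loci was not measured here. The pseudogenes named after Rpl27 received 1.72 times as many counts as the gene itself. They were at 112 and 115 CPM in the controls, against 109 and 112 with the mimic. With their counts added to the gene, Rpl27 was at 169 and 173 against 188 and 179 CPM and its log2 fold change was 0.10 (adjusted p = 0.53). Adding a larger count that differs little between the groups makes a fold change smaller whatever its source. With the counts of named copies added to all members, 0 were higher at an unadjusted p under 0.05. In that fit 11 of 81 members (13.6%) were lower, where 13.0% of all genes were.

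Loci with a member's name and -ps were listed for 60 members, 298 in all. All but 6 are annotated as pseudogenes, and the 6, among them Rpl10-ps3, Rps12-ps3 and Rpl9-ps6, are annotated as protein-coding. The -ps loci held at least 0.1 times the gene's counts in 9 and more than its own counts in 3 (Rpl27, Rpl28 and Rps23). In Rpl10, which joins the large subunit late in its assembly, the gene was at 1000 and 925 CPM in the controls, against 937 and 778 with the mimic. Its -ps loci, which include Rpl10-ps3, were at 383 and 385 against 319 and 526 CPM, so that mimic replicate 4 was the lowest library for the gene and the highest for the copies. The sum was more even, at 1383 and 1310 against 1256 and 1304 CPM. In Rps6 adding the copies moved the log2 fold change from -0.27 to -0.18, and in Rpl28 from -0.22 to -0.28. Expected counts were not whole numbers in at least 1 library for 79 of 81 members. Rpl8, which had whole counts in every library, had a log2 fold change of -0.17, and its groups did not overlap.

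**Figure D4:**
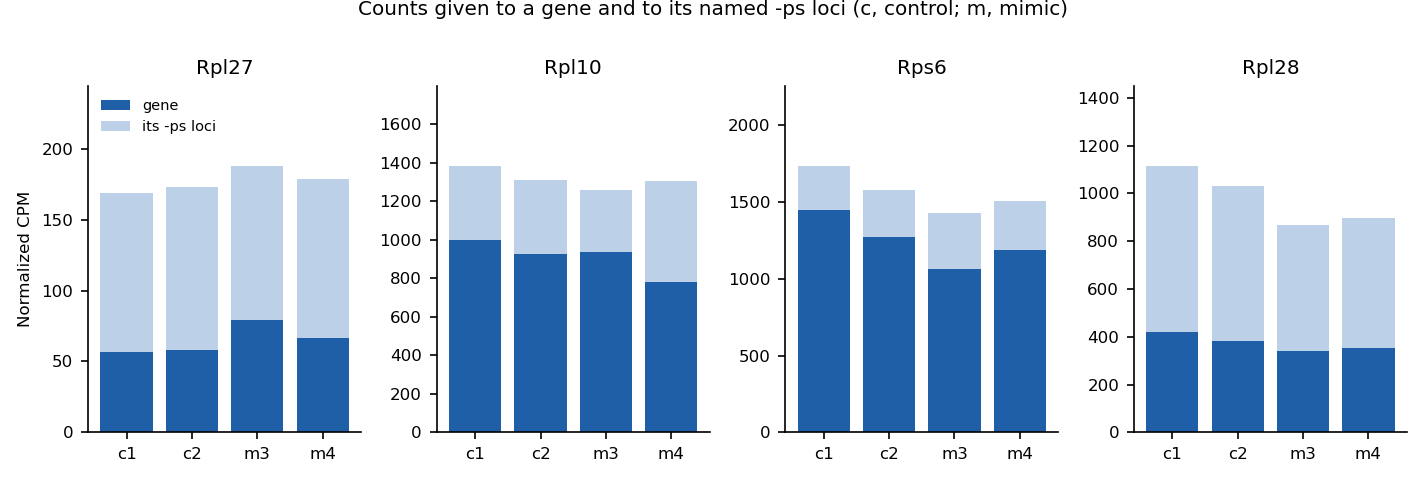
Normalized CPM of Rpl27, Rpl10, Rps6 and Rpl28 (dark) with their named -ps loci stacked above (light), per library (c1 and c2, controls; m3 and m4, mimic). The Rpl27 gene is higher in both mimic libraries while its -ps loci stay at 109 to 115 CPM, and the Rpl10 gene and its -ps loci move apart in mimic replicate 4.

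Pyrimidine tracts near the annotated start of the gene were sought because of the TOP motif described above. They are shown for 6 members, namely the 4 with the longest tracts in the printed window and the pair Rps27 and Rps27l. The window is the 30 bases from 15 before the RefSeq start, on the gene's strand in GRCm38.p6. The longest run of C and T is in capitals and can lie on either side of the start. In Rps27l the marked run ends before the start, so it lies outside the mRNA annotated from there. The windows are chr2:26910792-26910821 (plus strand) for Rpl7a, chr7:109519180-109519209 (plus) for Rpl27a, chr3:130730323-130730352 (minus) for Rpl34, chr2:39005117-39005146 (minus) for Rpl35, chr3:90213634-90213663 (minus) for Rps27 and chr9:66946071-66946100 (plus) for Rps27l.
Rpl7a: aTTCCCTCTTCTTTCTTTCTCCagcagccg
Rpl27a: gacttcgtgagCTCCTCCCTTTTCCCTTTC
Rpl34: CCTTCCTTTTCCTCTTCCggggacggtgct
Rpl35: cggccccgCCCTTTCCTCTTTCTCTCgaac
Rps27: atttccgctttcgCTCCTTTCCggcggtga
Rps27l: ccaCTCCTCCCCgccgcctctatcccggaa
A run of at least 8 pyrimidines, sought on the gene's strand alone, was in this window for 27 of 61 members with a window (44.3%) and for 3760 of all 27025 genes (13.9%). By class it was found in 17 of 34 large subunit genes, 8 of 23 small subunit genes and 2 of 4 paralogs. Changes with the mimic did not separate along it, since the 25 subunit genes with a run had a median log2 fold change of -0.17 (-0.27 to 0.01) and the 32 without had -0.17 (-0.32 to 0.35). By GENCODE transcript starts, 20 of 77 subunit genes (26.0%) began with C and at least 4 further pyrimidines, against 4.39% of other protein-coding genes, with median log2 fold changes of -0.16 for these 20 and -0.17 for the other 57. An annotated start can lie away from the start used in these cells.

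Level and length did not order the changes either. Length here is the one implied by each gene's counts and TPM in these libraries, and it was not read from the annotation. Across the 77 subunit genes the Spearman correlation of log2 fold change was -0.03 with mean TPM and -0.0021 with this length, a description over genes that share libraries. Subunit genes are short by this measure, however, and 75 of the 77 were among the shortest 25% of genes tested. The 2178 other protein-coding genes in that class, taken without symbols that begin with Mrp (mostly mitochondrial ribosomal proteins), had a median log2 fold change of 0.04, with 45.2% below 0. A correction for length by a loess curve per library gave medians of -0.12 (large) and -0.11 (small). The 53 other protein-coding genes of at least 811.6 TPM had a median of -0.08, with 60.4% below 0.

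Ribosomal proteins whose symbols escape the rule were described by Fau and Rack1. Fau, the precursor of a small subunit protein, was at 690 and 687 CPM in the controls, against 601 and 609 with the mimic. Rack1, a scaffold on the head of the small subunit, was at 1415 and 1285 against 1163 and 1185 CPM. Both mimic libraries lay below both controls in each gene, with log2 fold changes of -0.19 and -0.20 and adjusted p = 0.289 and 0.325 by edgeR.

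Other genes of translation, and other mRNAs with TOP tracts, spread to both sides of 0. The list of elongation factors and other mRNAs with TOP tracts includes Eef1a1 and Eef2 but is not limited to genes of translation. It had 16 of 21 genes below 0 (median log2 fold change -0.10) and 0 called. Initiation factors outside that list had 3 of 22 below 0 (median 0.20), mitochondrial ribosomal proteins 17 of 78 (median 0.14), and factors of ribosome biogenesis 1 of 64 (median 0.28), again with 0 called in each. Of the 64 biogenesis genes, 33 were higher at an unadjusted p under 0.05 by edgeR, where 11.8% of all genes were. For 54 of them both mimic libraries lay above both controls, where 28.9% of all genes did. Their lowest adjusted p was 0.051 by edgeR. Without control replicate 1 the median was 0.04 for mitochondrial ribosomal proteins and -0.04 for the TOP list, and without mimic replicate 3 it was 0.17 for biogenesis. Of the RNA polymerase I list 3 of 20 lay below 0 (median 0.15), and 1 gene was called. This was Taf1d, a subunit of the promoter selectivity factor, at 489 and 420 CPM in the controls, against 850 and 697 with the mimic (log2 fold change 0.77, SE 0.14, adjusted p = 0.0331 by edgeR), and the call was lost without mimic replicate 3 (0.62). Hosts of small nucleolar RNAs, some of which also carry TOP tracts, had 11 of 15 below 0 (median -0.26, and -0.04 without control replicate 1) and 0 called. Biogenesis genes and subunit genes were thus measured on opposite sides of 0, and the difference between the lists was not tested.

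**Figure D5:**
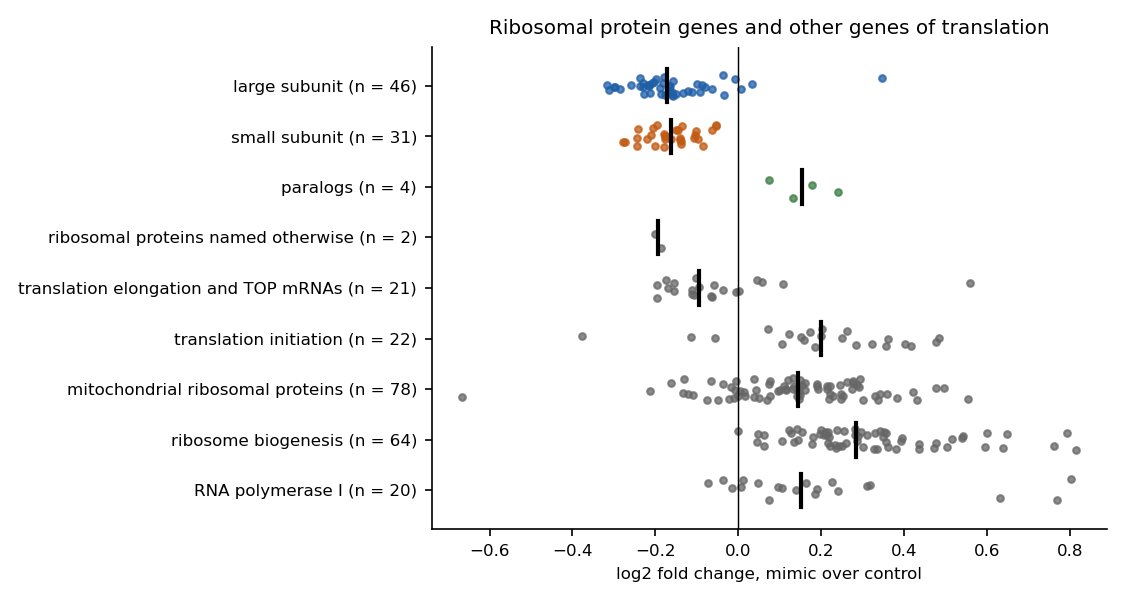
Log2 fold change (mimic over control) of each gene of both subunits, of the paralogs and of 6 other lists, with the median of each list as a black bar. The lists hold genes of translation, and the TOP list is not limited to them. Medians of the subunits and of the TOP list lie below 0 and those of initiation, biogenesis, mitochondrial ribosomal proteins and RNA polymerase I above it.

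Cell type markers moved with the libraries too. Paneth cell markers summed to 651 and 330 normalized CPM in the controls, against 312 and 390 with the mimic. Control replicate 1 was thus highest for their sum, as it was for 72 of the 77 subunit genes. All 5 had log2 fold changes below 0 with 0 called (median -0.80, and -0.06 without control replicate 1). Stem cell markers summed to 1452 and 923 against 1024 and 1279 CPM. Of these 5 genes, 1 was called, Lgr5, the receptor of crypt stem cells (log2 fold change -1.38, adjusted p = 0.0369 by edgeR). The list had 3 of 5 above 0, with a median of 0.05, and of -0.23 without control replicate 2. Enterocyte markers summed to 6309 and 7266 against 5387 and 5299 CPM, with 1 of 10 called, the brush border peptidase Anpep (log2 fold change -2.14, adjusted p = 0.00812). The list had 7 of 10 below 0 and 3 above, with a median of -0.34, and of 0.01 without control replicate 2. Proliferation genes summed to 1932 and 1955 against 2113 and 1988 CPM, with 7 of 8 above 0 (median 0.16). Of these 8, 1 was called, the replication helicase gene Mcm2 (log2 fold change 0.51, adjusted p = 0.0369). The 8 epithelial markers had 4 below 0 and 4 above (median -0.04), and the transcription factor gene Cdx1 was called (0.47, adjusted p = 0.0477). Mcm2 kept its sign but lost the call without replicate 1 (0.49), 3 (0.47) or 4 (0.57), and Cdx1 without replicate 3 (0.43) or 4 (0.52). Goblet cell markers (5 genes, median 0.55), enteroendocrine markers (5 genes, 0.37) and tuft cell markers (4 genes, -0.14) had 0 called, and their medians rest on single libraries. Without mimic replicate 3 they were -0.03 (goblet) and 0.04 (enteroendocrine), and without control replicate 1 the tuft median was 0.50. The part of these markers, of depth and of rRNA in the values of the ribosomal protein genes was not tested.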

How the data were processed

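Mouse SI organoid RNA-seq libraries (2 miRNA mimic control, 2 miR-181a-5p mimic) were analysed. Reads (single, 100 cycles) were trimmed by the authors with Trimmomatic and assigned to transcripts of GRCm38 (mm10) with RSEM. The deposited values are expected counts per gene, not normalized, and TPM. Depletion of ribosomal RNA is given in the supplemental methods but poly(A) enrichment in the labels. In each of the 2 tables, 3 columns matched no sample and were not used. Of 55487 identifiers, 55227 matched GENCODE M21, which gave symbols, biotypes and positions.

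Expected counts were rounded, and edgeR 4.0.16 (R 4.3.3) was run (filterByExpr, TMM, glmQLFit with legacy = FALSE, glmQLFTest) across all 17155 genes kept, with Benjamini-Hochberg adjustment and a threshold of 0.05. In the authors' edgeR analysis a q-value under 0.05 was required together with a 2-fold change. The standard error is the size of the log2 fold change divided by the root of F. The common biological coefficient of variation was 0.13, and precision is limited by the 2 libraries per group. The fit was tested on simulated counts. Alternatives used edgeR's exact, likelihood-ratio and legacy quasi-likelihood tests (the last added after seeing the data), DESeq2 1.42.0, RLE, upper-quartile or no factors, other filters, limma 3.58.1 on log2(TPM + 1) and log2(TPM + 0.1), a length correction, addition of the counts of loci named after a member with -ps, and omission of each library.

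Named genes were the 5 highest and 5 lowest by log2 fold change (at least 100 counts in every library) and by mean TPM, paralog pairs, the stalk, Fau, Rack1, and called genes of the companion lists. A few genes that this rule takes are not reported here. Members and lists were chosen with earlier results of these data known. Plots were drawn with matplotlib 3.10.9.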

Additional observations from a re-analysis of the deposited data

How the results depend on the processing

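Calls and log2 fold changes were recomputed under 18 alternatives, and the share of members in counts under a smaller set of its own. No member was called higher in any, and members were called lower only without replicate 2 (0 to 4 calls over the omissions of a library). The median of both subunits was below 0 in every alternative. For the large subunit it was -0.22 with upper-quartile factors, -0.12 in all 3 fits of log2 TPM and -0.12 with the length correction, against -0.17. The share of members in counts, mimic less control, was -0.907 percentage points with nuclear protein-coding genes as the total, against -0.585, and it ran from -0.895 (without replicate 2) to -0.275 (without replicate 1) over the omissions of a library. Single genes near 0 changed sign. Rpl5 was at -0.0191 with upper-quartile factors and at -0.0525 or -0.0529 in the 3 fits of log2 TPM. Rpl13a was at -0.0451 with upper-quartile factors and -0.0059 with at least 10 counts in every library. Over the omissions of a library Rpl13a ran from -0.0209 (without replicate 3) to 0.0434 and was -0.0048 without replicate 2, Rplp0 ran from -0.1362 to 0.0105 (without replicate 1) and Rpl36al from -0.0657 (without replicate 1) to 0.2232. The causes were not tested. The calls of Taf1d, Cdx1, Anpep, Lgr5 and Mcm2 kept their sign but were lost in 27 recomputations, among them all 3 fits of log2 TPM. By omission of a library, Taf1d lost its call without replicate 3 (0.62), Cdx1 without replicate 3 (0.43) or 4 (0.52), and Mcm2 without replicate 1 (0.49), 3 (0.47) or 4 (0.57). Over all genes, calls ranged from 2 (log2(TPM + 1) without filter) to 2365 (without replicate 2), beside 612, 1788 by the exact test, 1864 by the likelihood-ratio test and 1322 by DESeq2. When a library was left out, the lone sample was assumed to vary like the other group. No paired analysis was possible because the groups share no replicate numbers.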
